A study of Mus musculus with 3 samples.

Results

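Transcripts of 34 genes that serve S phase were examined in lung mesenchyme of mouse pups, by the cell types and sort gates of the deposited annotation. The 34 genes were taken by name from the 31730 genes of the count matrix, and all 34 were found there. They comprise 8 genes of origin licensing (Cdc6, Cdt1, Mcm2, Mcm3, Mcm4, Mcm5, Mcm6 and Mcm7) and 4 of helicase activation (Mcm10, Cdc45, Gins1 and Gins2). A further 6 act in synthesis at the fork (Pola1, Prim1, Pcna, Rfc3, Rfc4 and Pclaf) and 5 in nucleotide supply (Tyms, Rrm1, Rrm2, Dut and Tk1). The remaining members are 5 chromatin genes (Chaf1a, Chaf1b, Uhrf1, Hells and Slbp), 4 genes of G1/S control (Ccne1, Ccne2, E2f1 and E2f8) and 2 of repair and checkpoint (Exo1 and Clspn).

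All pups carried Fgf18CreERT2/+, which places a tamoxifen-inducible Cre at the Fgf18 locus, ROSATDTomato/+, a Cre-dependent red reporter, and PdgfrαEGFP/+, a green reporter at the Pdgfra locus. Tamoxifen was given from postnatal day 2 to day 5 and lungs were taken at day 7. Live cells were sorted by green (GFP) and red (tdT) fluorescence into 3 gates with 1 droplet library each. The gate GFP-low tdT-negative is called GFP-low here, the gate GFP-high tdT-negative is called unlabelled GFP-high, and the gate GFP-high tdT-high is called labelled GFP-high. The red label thus marks only cells, and their progeny, in which the Fgf18 locus drove Cre during tamoxifen exposure, and the sources used here do not say whether several pups were pooled. The deposited cell type names are used as given: DivFB-S, DivFB-S/G2M and DivFB-G2M for dividing fibroblasts, MyoFB-IMR, MyoFB-Int and MyoFB-Ter for myofibroblasts, AdvFB, and MatFB-Im,Cuff, MatFB-Type 1 and MatFB-Type 2.

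The 3 libraries held 1284, 3347 and 1511 cells and 26586489, 68692834 and 34506226 UMIs (unique molecule counts) in the order of the gates above. DivFB cells made up 15, 190 and 42 of them, or 1.17%, 5.68% and 2.78%, and the GFP-low library had no DivFB-S cell. The members gave 6210, 28251 and 11931 UMIs. A gate has a single library and so no replicate, and therefore neither a test nor a p-value is given. Levels are UMIs scaled to a total of 1000000 in the cells compared (CPM), and all intervals are exact 95% intervals that cover counting error only. A member was counted in a comparison from 20 UMIs over both groups and called higher or lower from 1.5-fold. Between the libraries 4 cell barcodes were shared, and the 8 cells with these barcodes all lay outside the DivFB types.

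Before S phase the origin recognition complex, Cdc6 and Cdt1 load the Mcm2 to Mcm7 ring onto DNA. Cdc45 and the GINS complex then join the ring to form the active helicase, and polymerase alpha with primase, the Pcna clamp and its loader copy the strands. Most of these genes are switched on by E2F factors once the retinoblastoma protein is phosphorylated, and they fall silent in cells that leave the cycle. In the lung the days after birth are the time when myofibroblasts of the growing septa divide and then mature.

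The DivFB cells carried fibroblast transcripts. With the 3 libraries pooled, all 7 myofibroblast markers (Pdgfra, Acta2, Tagln, Tgfbi, Stc1, Hhip and Fgf18) stood at 10 CPM or more in DivFB-S and in DivFB-G2M. The epithelial markers summed to 1.01 and 2.04 CPM there. Of 5 smooth muscle markers 3, 5 and 5 stood at 10 CPM or more in DivFB-S, DivFB-S/G2M and DivFB-G2M, and of 8 alveolar matrix fibroblast markers 2, 5 and 8 did. Of 8 adventitial markers 2, 4 and 3 did, of 5 pericyte markers 3, 3 and 2, and of 5 endothelial markers 1, 1 and 1. Of the 4 mesothelial markers all were at 0 in DivFB-S and DivFB-G2M. Of the 6 immune markers Ptprc and Cd3e were at 0 in each of the 3 DivFB types, while 2, 0 and 2 stood at 10 CPM or more in them. Their sum was 34.9, 24.3 and 36.2 CPM in the DivFB types of the unlabelled GFP-high library, S first, against 42.6 CPM in its MyoFB-IMR cells, and 55.8, 17.7 and 22.7 CPM against 36.2 CPM in the labelled one. Their part in the members' levels was not tested. The sources used here do not say how the authors named these types, and the names may rest on the very genes described, so levels in DivFB are a description of the annotation and not a test.

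Every member was higher in the DivFB types than in the other types in both GFP-high libraries. The GFP-low library, with 15 DivFB cells, was not compared this way. In the unlabelled GFP-high library all 34 were called higher, where 14.1% of the 20581 genes counted were and 24% were lower, with a median log2 ratio of 2.50 against -0.06 over all genes. In the labelled GFP-high library all 34 were again called higher, where 19.4% of genes were and 25.9% were lower, with a median of 2.98 against -0.04. By role, the median log2 ratios in the unlabelled library ran from 1.89 in G1/S control to 3.58 in nucleotide supply and 4.35 in repair and checkpoint. Summed over the members, DivFB-S cells of the unlabelled and labelled GFP-high libraries held 3617 and 3080 CPM, DivFB-S/G2M cells 2725 and 3805 CPM and DivFB-G2M cells 676 and 643 CPM. In MyoFB-IMR, the type with the highest sum among MyoFB types, the sum was 338 and 316 CPM.

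**Figure D1:**
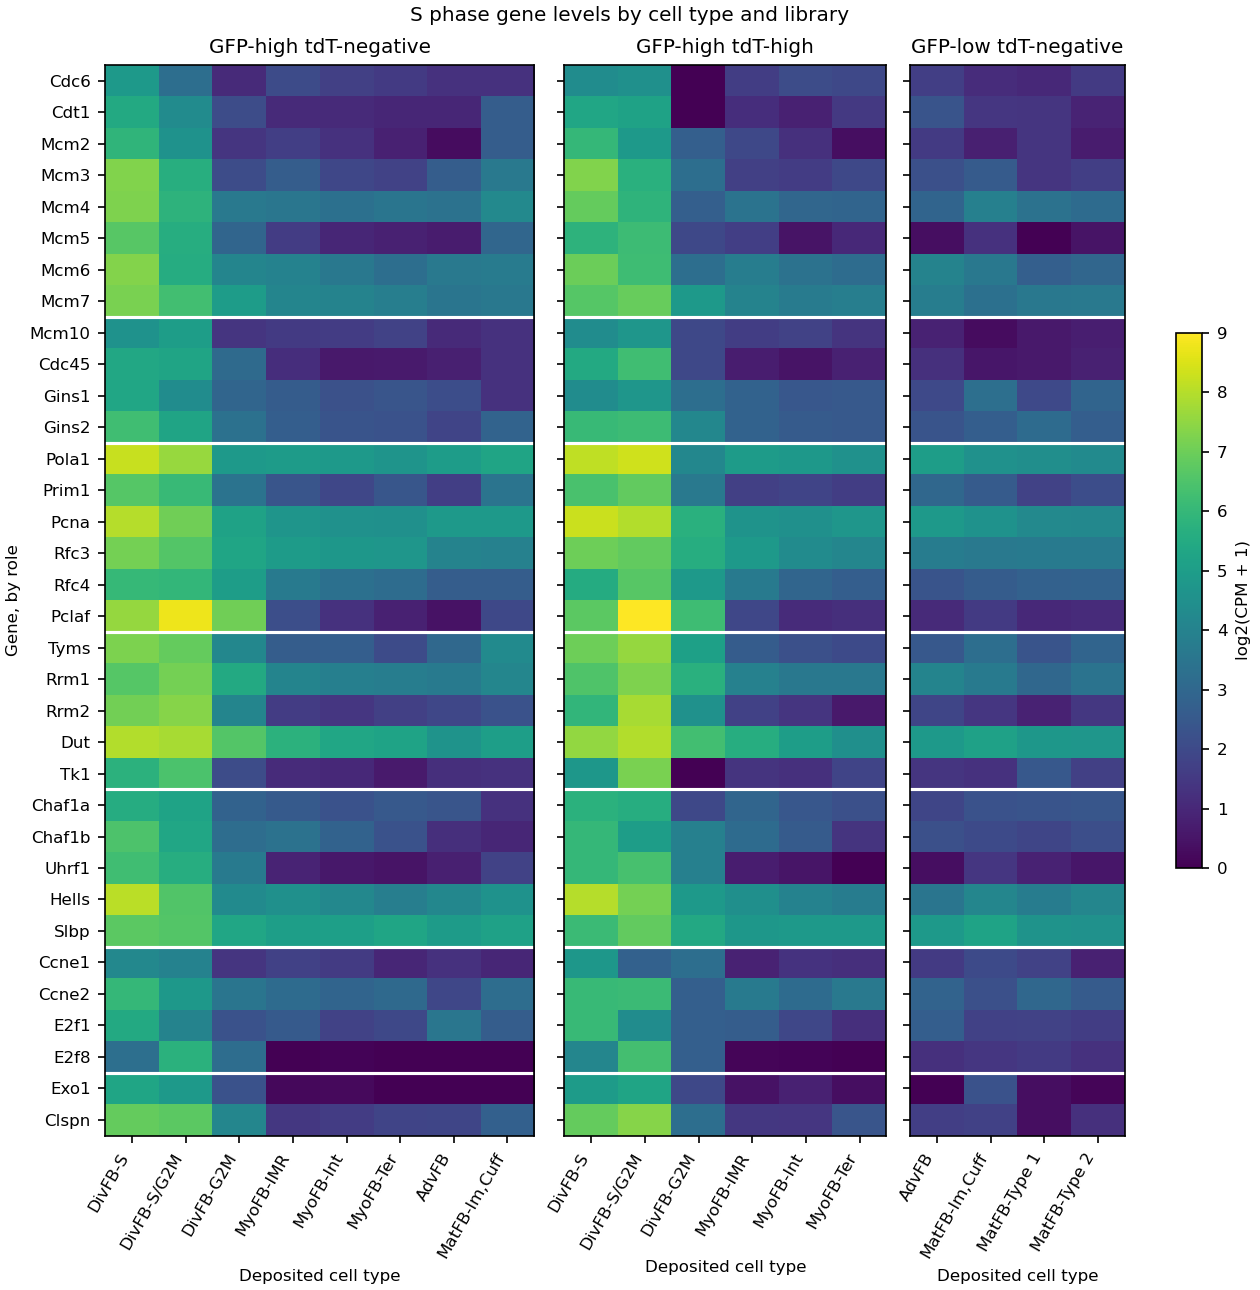
Level of each of the 34 genes as log2(CPM + 1), by colour, in deposited cell types (columns) of each library, with white lines between the role groups. Types with fewer than 100 cells in a library are left out, except for the DivFB types of the GFP-high libraries. The DivFB-S and DivFB-S/G2M columns are bright for nearly all genes, and E2f8 and Exo1 are near 0 in every MyoFB column.

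Among the licensing genes Mcm5, a subunit of the replicative helicase ring, had the highest ratio of DivFB to other cells. It stood at 100 CPM in DivFB-S, 47.2 in DivFB-S/G2M and 6.58 in DivFB-G2M of the unlabelled GFP-high library, against 1.44 CPM outside DivFB, a ratio of 27.2 (21.0 to 35.4). In the labelled GFP-high library it stood at 55.8, 71.0 and 2.83 CPM against 1.05, a ratio of 44.2 (28.3 to 69.6). Cdc6, the loader of the ring, had the lowest ratio of the group, 3.57 (2.44 to 5.10) and 5.18 (2.89 to 8.74) in the same order. Of its 94 UMIs outside DivFB in the labelled library 16 were in 1 MyoFB-Int cell. Without the richest outside cell the ratio there was 6.23 (3.46 to 10.6). Mcm7, another ring subunit, had the most UMIs of the licensing group and stood at 144, 75.8 and 30.7 CPM in the 3 DivFB types, S first, against 14.5 CPM outside them in the unlabelled GFP-high library.

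Cdc45, a helicase cofactor that had the highest ratios in helicase activation, stood at 26.0 CPM in DivFB and 0.811 CPM outside it in unlabelled GFP-high cells, and at 44.6 and 0.510 CPM in labelled GFP-high cells. The ratios were 32.1 (23.0 to 45.3) and 87.5 (49.8 to 161). Gins1, a subunit of the GINS complex, had the lowest ratios of the group, 4.14 (3.19 to 5.33) and 3.82 (2.33 to 5.97). Its level outside DivFB was 4.24 and 4.95 CPM.

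At the fork, Pclaf, the Pcna-associated factor (chromosome 9, 65890323 to 65903551, GRCm38), had the highest ratio of its group. It stood at 188 CPM in DivFB-S, 441 in DivFB-S/G2M and 131 in DivFB-G2M of the unlabelled GFP-high library and at 1.93 CPM outside, a ratio of 145 (120 to 176). In the labelled GFP-high library the values were 105, 501, 73.6 and 1.68 CPM, a ratio of 159 (120 to 216). The DivFB cells held 91.2% and 84.8% of all Pclaf UMIs in these libraries. Rfc3, a subunit of the clamp loader, was the opposite within the group, with 79.0 CPM in DivFB and 25.2 CPM outside, a ratio of 3.14 (2.79 to 3.52), and 97.9 and 21.7 CPM, a ratio of 4.50 (3.66 to 5.49). Pola1, the catalytic subunit of polymerase alpha and the fork gene with the most UMIs, stood at 145 CPM in DivFB against 28.6, and at 218 against 27.4.

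In nucleotide supply Rrm2 and Tk1 were far lower outside DivFB than Dut or Rrm1 were, relative to their DivFB levels. Rrm2, the small subunit of ribonucleotide reductase, stood at 101 CPM in DivFB and 2.09 outside, a ratio of 48.3 (39.7 to 58.9), and at 121 and 1.77 CPM, a ratio of 68.4 (50.1 to 94.3). Its partner Rrm1 had ratios of 6.70 (5.96 to 7.52) and 8.66 (7.02 to 10.6). Dut, the dUTPase and the member with the most UMIs of this group, had ratios of 4.30 (3.97 to 4.65) and 5.06 (4.35 to 5.87), with 41.6 and 35.3 CPM outside DivFB.

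Of the chromatin genes, Uhrf1, which recruits the maintenance DNA methyltransferase to new DNA, stood at 37.3 CPM in DivFB and 0.687 outside, a ratio of 54.4 (38.8 to 77.5), and at 56.7 and 0.450 CPM, a ratio of 126 (71.1 to 238). Slbp, the histone mRNA stem-loop binding protein, had the lowest ratio of all 34 members, 2.30 (2.04 to 2.58) and 2.91 (2.33 to 3.61). Outside DivFB it stood at 32.3 and 27.7 CPM.

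E2f8, an E2F family repressor of the G1/S group, was almost absent outside DivFB in the GFP-high libraries. It gave 2 UMIs in 3157 unlabelled GFP-high cells and 2 UMIs in 1469 labelled GFP-high cells outside DivFB, or 0.0312 and 0.0600 CPM, against 28.9 and 40.3 CPM in DivFB. The ratios were 925 (251 to 7715) and 673 (176 to 5717), and DivFB cells held 98.5% and 95.9% of the E2f8 UMIs. E2f1, an activator of the same family, had the lowest ratio of the group in the unlabelled library, 3.37 (2.55 to 4.39), and a ratio of 8.03 (5.25 to 12.0) in the labelled one. Ccne2, a cyclin that drives S phase entry, had the lowest in the labelled library, 5.15 (3.81 to 6.84), and stood at 25.6 and 48.9 CPM in DivFB against 6.49 and 9.51. Exo1, a repair exonuclease, stood at 37.8 CPM in DivFB-S, 28.1 in DivFB-S/G2M and 3.84 in DivFB-G2M of the unlabelled library and at 0.125 CPM outside, a ratio of 160 (77.9 to 381), and had a ratio of 43.7 (23.7 to 82.4) in the labelled one. Of its 19 UMIs outside DivFB in the labelled library 12 were in 1 MyoFB-Int cell, and without the richest outside cell the ratio was 119 (50.8 to 321). The checkpoint adaptor Clspn stood at 71.8 and 105 CPM in DivFB and at 2.25 and 2.01 CPM outside.

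The level outside DivFB, as a percentage of the level in DivFB, thus spanned a wide range among the members. It ran from 0.108% for E2f8 to 43.5% for Slbp in unlabelled GFP-high cells, with a median of 15.6%, and from 0.149% to 34.3% for the same 2 genes in labelled GFP-high cells, with a median of 11.4%. Of the 34 members 9 lay under 5% in both libraries, namely E2f8, Exo1, Pclaf, Uhrf1, Rrm2, Tk1, Cdc45, Clspn and Mcm5, and 3 lay at 20% or more in both, namely Slbp, Rfc3 and Gins1. In the unlabelled library Mcm5 lay just under 5% at 3.68%, and Prim1 was next above it at 7.13%. Across the 34 members the percentages of the 2 libraries had a rank correlation of 0.91, as a description across genes that share cell types and depth. DivFB-G2M cells were 91 of 190 DivFB cells in the unlabelled library and 15 of 42 in the labelled one, which moves the DivFB level, and the part of this mix in the percentages was not tested. The 34 genes did not keep 1 ratio between DivFB and other cells within a library.

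**Figure D2:**
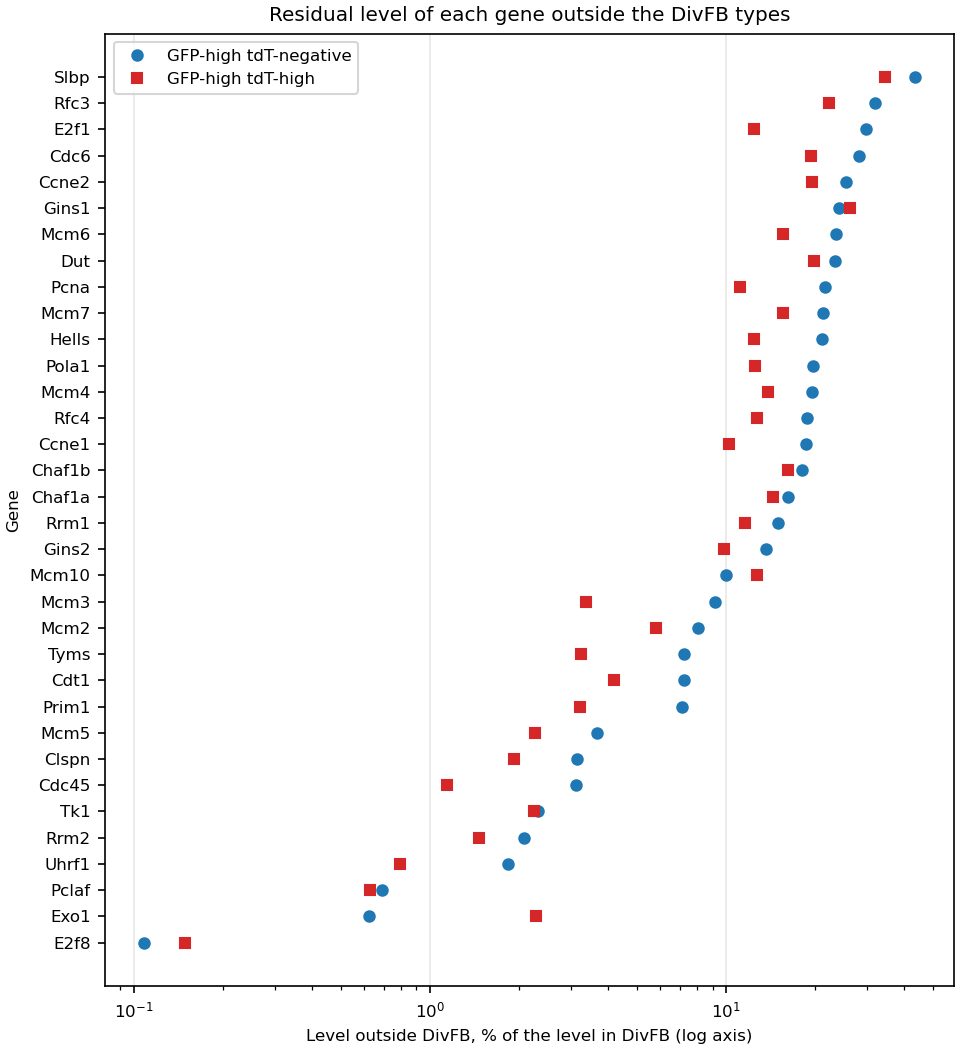
Level of each gene outside the DivFB types as a percentage of its level in DivFB, on a log axis, for the unlabelled GFP-high (circles) and labelled GFP-high (squares) libraries. Slbp is highest at 43.5% and 34.3%, and E2f8 is lowest at 0.108% and 0.149%.

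Other lists of genes lay on either side of the members. For 30 genes of G2 and mitosis the median percentage was 0.656% and 0.731%, and for 68 other replication genes it was 28.0% and 21.8%. Of these 68 genes 56 were called higher in DivFB in the unlabelled library, and 59 of the 67 counted were in the labelled one. The highest ratios of that list were those of Ccna2, Rad51ap1 and E2f7 in unlabelled GFP-high cells, at 309, 105 and 53.4. The lowest were Pold4, Orc3 and Orc5, at 0.73, 0.83 and 0.87, a polymerase delta subunit and 2 subunits of the origin recognition complex.

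Since all 34 members were higher in DivFB, the starts of their genes were read from RefSeq (GRCm38.p6), where 29 of the 34 members had an entry. An entry spans 250 bases before and 50 after the start. The words searched, on both strands, were the E2F words TTTCCCGC, TTTCGCGC, TTTGCCGC and TTTGGCGC. At least 1 word was present for 12 of the 29 members, or 41.4%, and for 704 of all 27025 genes with a window, or 2.60%. Of the other replication genes with a window 39.2% held a word (20 of 51), of the G2 and mitosis genes 3.70% (1 of 27) and of the G1 control and exit genes 0 of 10. The word CCAAT was in 67.7% of the members' windows and in 37.4% of all windows. The 4 stretches are shown 5′ to 3′ with E2F words in capitals, namely 2 ring subunits with such words, of which Mcm5 was low and Mcm6 higher outside DivFB, and the 2 members with the highest percentages outside DivFB in unlabelled GFP-high cells. They end at the base before the outermost annotated start and lie at chr8:75109329-75109467 (plus strand), chr1:128359706-128359885 (minus strand), chr5:151651209-151651388 (minus strand) and chr5:33652575-33652754 (minus strand).
Mcm5: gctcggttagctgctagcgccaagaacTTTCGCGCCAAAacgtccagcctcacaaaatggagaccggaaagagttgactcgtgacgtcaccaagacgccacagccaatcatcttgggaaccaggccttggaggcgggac
Mcm6: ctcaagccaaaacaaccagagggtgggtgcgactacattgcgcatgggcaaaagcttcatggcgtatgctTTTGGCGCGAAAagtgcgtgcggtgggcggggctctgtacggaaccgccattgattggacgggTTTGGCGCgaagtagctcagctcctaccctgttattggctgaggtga
Rfc3: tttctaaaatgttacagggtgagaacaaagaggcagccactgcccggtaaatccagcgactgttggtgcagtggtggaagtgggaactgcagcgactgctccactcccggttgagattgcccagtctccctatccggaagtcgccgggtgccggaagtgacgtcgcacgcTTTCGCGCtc
Slbp: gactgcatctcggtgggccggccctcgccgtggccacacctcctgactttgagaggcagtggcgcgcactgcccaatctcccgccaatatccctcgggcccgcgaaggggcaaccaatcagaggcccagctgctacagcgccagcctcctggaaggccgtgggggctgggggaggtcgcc
In Mcm5 and in the first capitals of Mcm6, 2 words on opposite strands overlap. The Rfc3 stretch holds a word, and Rfc3 stood at 31.9% outside DivFB, and the Slbp stretch holds none of these letters. A match is a description of the letters and not a measured site.

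Within the DivFB types the members did not all peak under the same name. In the unlabelled GFP-high library 28 of 34 were highest in DivFB-S and 6 in DivFB-S/G2M, but in the labelled GFP-high library 12 were highest in DivFB-S and 22 in DivFB-S/G2M, and the highest name was the same in both for 18. None was highest in DivFB-G2M in either. These counts used no minimum of UMIs or of fold, and the same counts were not made over all genes. DivFB-S and DivFB-S/G2M had 28 and 71 cells in the first library and 11 and 16 in the second, and their median depth was 24123 and 30940 UMIs in the first and 30911 and 33104 UMIs in the second.

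The ring subunits Mcm2, Mcm3, Mcm4 and Mcm6 were called higher in DivFB-S than in DivFB-S/G2M in both libraries. Over DivFB-S/G2M cells of the unlabelled GFP-high library 18 members were called higher, where 14.8% of genes were, and 3 lower, where 16.7% of genes were. In the labelled GFP-high library 7 of 30 counted members were higher (16.7% of genes) and 8 lower (19.1% of genes). Mcm3 stood at 157 against 48.6 CPM, a ratio of 3.23 (2.44 to 4.28), and at 158 against 51.3 CPM, a ratio of 3.08 (1.87 to 5.16). Mcm6 had ratios of 3.46 (2.61 to 4.58) and 1.71 (1.06 to 2.77), Hells, a chromatin remodeller, 2.85 (2.31 to 3.50) and 1.83 (1.31 to 2.57), and E2f1 2.86 (1.68 to 4.86) and 3.33 (1.49 to 7.97). Chaf1b, a subunit of the histone chaperone CAF-1, was also called higher in both, with an interval that includes 1 in the labelled library. Mcm5 had a ratio of 2.13 (1.54 to 2.92) in the unlabelled library and of 0.79 in the labelled one. The remaining ring subunit, Mcm7, stood at 144 against 75.8 CPM in the unlabelled library and at 98.5 against 120 CPM in the labelled one.

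The following 3 members were called lower in DivFB-S than in DivFB-S/G2M in both libraries. E2f8 stood at 8.73 against 53.4 CPM, a ratio of 0.16 (0.06 to 0.37), and at 16.4 against 78.9 CPM, a ratio of 0.21 (0.06 to 0.53). Pclaf had ratios of 0.43 (0.35 to 0.51) and 0.21 (0.14 to 0.30), and Tk1, the salvage thymidine kinase, 0.63 (0.43 to 0.90) and 0.18 (0.08 to 0.38). Rrm2 stood at 134 against 164 CPM in the unlabelled library and at 59.1 against 227 CPM in the labelled one. From DivFB-S/G2M to DivFB-G2M all 34 members were lower in the unlabelled GFP-high library, where 14.2% of genes were lower in that direction and 14.9% higher. All 27 members counted were lower in the other library, where 20% of genes were and 19.8% were higher.

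**Figure D3:**
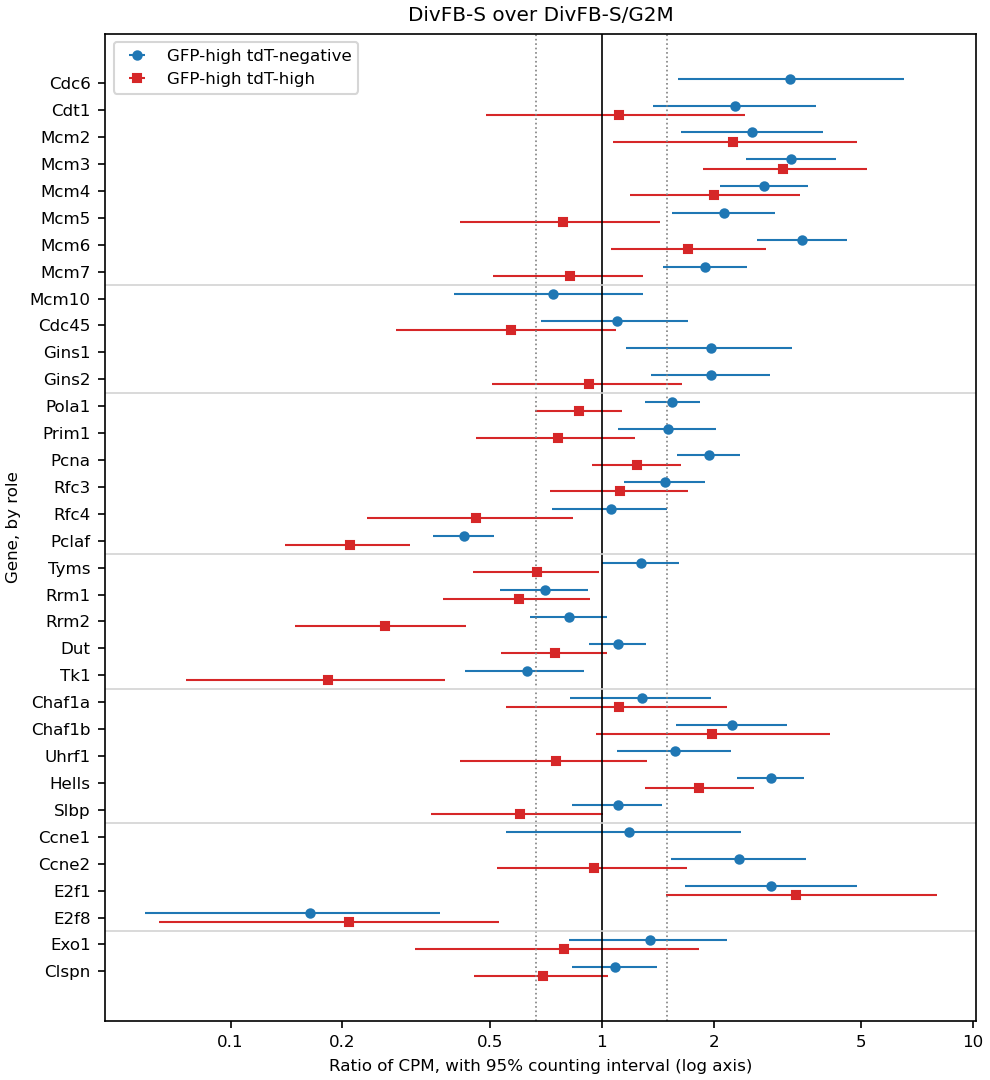
Ratio of the CPM in DivFB-S to that in DivFB-S/G2M for each counted gene (log axis), with 95% counting intervals, for the unlabelled GFP-high (circles) and labelled GFP-high (squares) libraries; dotted lines mark 1.5-fold. Mcm3 lies to the right at 3.23 and 3.08, and E2f8 to the left at 0.16 and 0.21.

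Outside the DivFB types most members had a higher level in MyoFB-IMR than in MyoFB-Ter. It was higher in MyoFB-IMR for 28 of 34 in unlabelled GFP-high and 25 of 34 in labelled GFP-high cells, 21 of them in both. The full order of MyoFB-IMR over MyoFB-Int over MyoFB-Ter held for 19 and 17 members, 11 in both. These counts used no minimum of UMIs, and the same counts over all genes were not made. E2f8, for example, entered the order in the labelled library at 0.0913, 0.0548 and 0 CPM. By the 1.5-fold call 16 of 32 counted members were higher in MyoFB-IMR than in MyoFB-Ter (21.4% of genes) and 1 lower (9.77% of genes) in the first library. In the second 14 of 29 were higher (25.1% of genes) and 2 lower (12.4% of genes). Over MyoFB-Int, MyoFB-IMR was higher for 8 of 32 members (16.6% of genes) and lower for 0 (6.35% of genes), and for 9 and 2 of 30 in the second library (18.2% and 8.13% of genes). MyoFB-Int over MyoFB-Ter was higher for 6 of 30 and lower for 1 (10.4% and 7.79% of genes), and for 5 and 3 of 29 in the second (14.4% and 10.6% of genes). From MyoFB-IMR to MyoFB-Ter the median log2 ratio was 0.45 and 0.39, against 0.08 and 0.13 over all genes.

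Dut stood at 54.6, 39.5 and 36.0 CPM in MyoFB-IMR, MyoFB-Int and MyoFB-Ter of the unlabelled GFP-high library and at 47.3, 30.9 and 21.2 CPM in the labelled GFP-high library. Its ratio of MyoFB-IMR to MyoFB-Ter was 1.52 (1.30 to 1.78) and 2.23 (1.76 to 2.85). Chaf1b showed the same order in both libraries with 9.62, 6.20 and 3.77 CPM and then 7.85, 5.04 and 1.55 CPM, ratios of 2.55 (1.61 to 4.27) and 5.06 (2.23 to 14.2). Mcm6 stood at 15.1, 11.1 and 8.48 CPM and at 13.2, 9.42 and 8.03 CPM. Hells and Rfc4, another clamp loader subunit, were called higher in MyoFB-IMR in both libraries as well, with intervals of the ratio above 1. Pclaf, Mcm2 and Mcm5 were also called higher in both, but their intervals did not all lie above 1. Those of Pclaf and Mcm5 in the labelled library include 1. In MyoFB-Ter these genes had 4, 4 and 4 UMIs in the first library and 5, 1 and 4 in the second.

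Slbp did not share this order, at 32.0, 32.5 and 38.6 CPM and then 26.0, 28.5 and 28.2 CPM. Clspn was called lower in MyoFB-IMR in both libraries, at 1.72 against 2.64 CPM in MyoFB-Ter, with an interval of the ratio from 0.34 to 1.31, and at 1.74 against 4.14 CPM, from 0.20 to 0.87. Among the genes of G1 control and exit, 4 of 16 were higher (21.4% of genes) and 3 lower (9.77% of genes) in MyoFB-IMR in the first library. In the second 6 were higher (25.1% of genes) and 2 lower (12.4% of genes). The share of higher genes in the first library thus lay near that of all genes. Ccnd1, a G1 cyclin, stood at 58.4 against 9.42 CPM, and Cdkn1c, a cyclin-dependent kinase inhibitor, at 131 against 341 CPM in the first. Both were picked from the list after their values were seen.

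**Figure D4:**
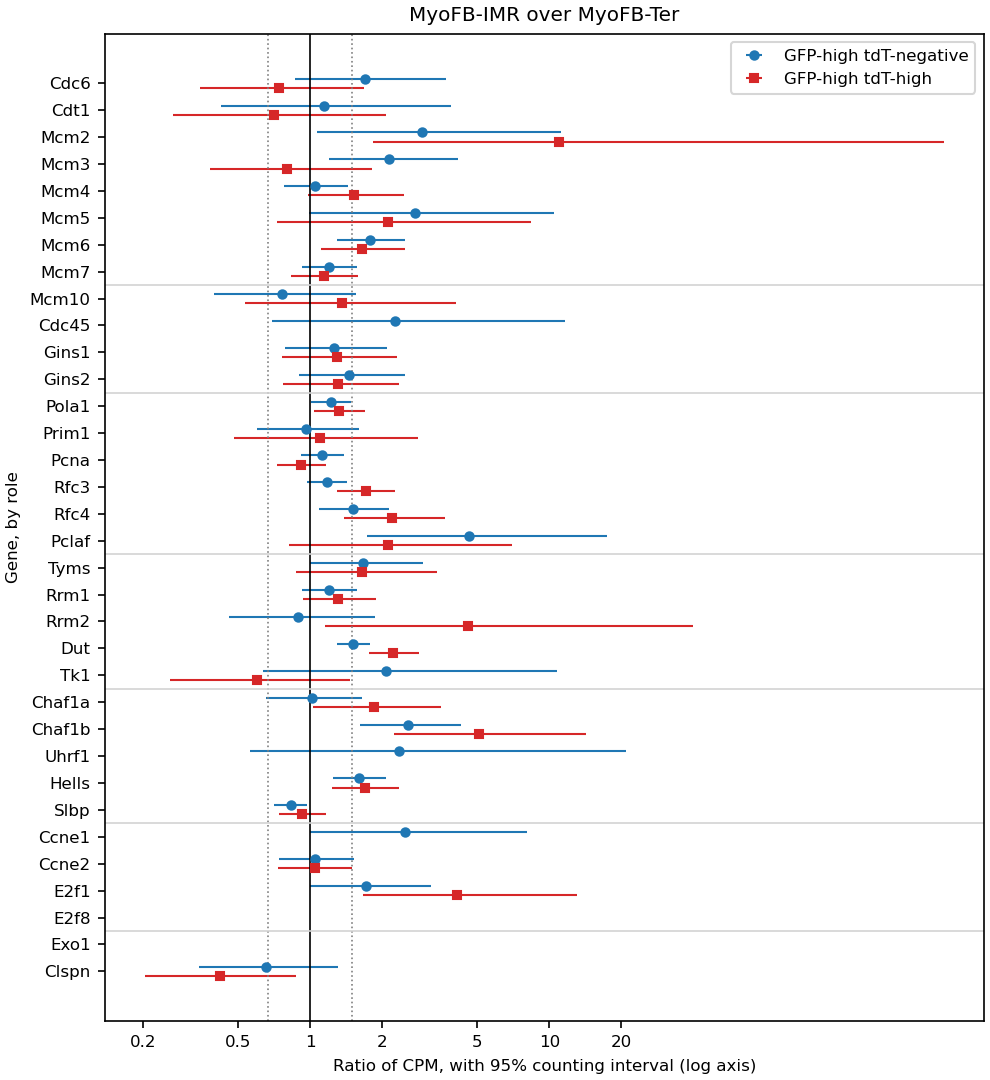
Ratio of the CPM in MyoFB-IMR to that in MyoFB-Ter for each counted gene with UMIs in both types (log axis), with 95% counting intervals, for the unlabelled GFP-high (circles) and labelled GFP-high (squares) libraries; dotted lines mark 1.5-fold. Dut and Chaf1b lie right of 1 in both libraries, and Clspn lies left of it.

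Chaf1b and Dut were lower in AdvFB than in MyoFB-IMR cells of the same library, and E2f1 was higher. In the unlabelled GFP-high library MyoFB-IMR was higher for 16 of 32 counted members (39.2% of genes) and lower for 2, E2f1 and Clspn (16.7% of genes), with a median log2 ratio of 0.38 against 0.33 over all genes. Chaf1b stood at 9.62 against 1.34 CPM, a ratio of 7.18 (3.93 to 14.6), and Dut at 54.6 against 23.6 CPM, 2.31 (1.98 to 2.71). E2f1 stood at 4.86 CPM in MyoFB-IMR and 10.5 CPM in AdvFB, a ratio of 0.46 (0.34 to 0.63). In the GFP-low library AdvFB was higher than MatFB-Type 2 for 10 of 26 members (20.9% of genes) and lower for 3 (28.6% of genes). Cdt1 stood at 4.07 against 0.84 CPM there, a ratio of 4.86 (2.08 to 11.7), and E2f1 at 5.43 against 2.14 CPM. Of the 148 AdvFB cells 43 held at least 2 of 5 smooth muscle markers after thinning. Without them 7 of 25 members were higher and 3 lower. The share over all genes was not made for this setting, and 7 of 25 lies nearer the 20.9% above than 10 of 26 does. Cdt1 then stood at 2.98 CPM, a ratio of 3.55 (1.24 to 9.69), and E2f1 at 6.71 CPM, 3.14 (1.64 to 5.88).

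Most cells outside DivFB held a UMI of at least 1 member even when thinned to equal depth. With every cell thinned to 5000 UMIs, DivFB-S cells held a mean of 11.7 and 11.1 members in the unlabelled and labelled GFP-high libraries, DivFB-S/G2M cells 8.87 and 11.1 and DivFB-G2M cells 2.98 and 2.40. MyoFB-IMR cells held 1.49 and 1.51, MyoFB-Int cells 1.27 and 1.10 and MyoFB-Ter cells 1.24 and 1.05. MatFB-Type 2 cells of the GFP-low library held 0.917. With all UMIs these means were 22.7 and 23.9 in DivFB-S and 4.67 and 5.07 in MyoFB-IMR. No member was found after thinning in 36.2% of GFP-low, 25.9% of unlabelled GFP-high and 29.7% of labelled GFP-high cells outside DivFB. The variance of the number per cell over its mean was 1.03 in the other types of each GFP-high library and 0.978 in GFP-low cells. It was 2.03 in MatFB-Im,Cuff cells of the unlabelled GFP-high library. Thinning to a mean near 1 draws this ratio toward 1, so the ratio cannot show how evenly the UMIs were spread.

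At least 5 members were found after thinning in 4 of 1269 GFP-low cells outside DivFB (0.315%, 0.086 to 0.805), in 38 of 3157 unlabelled GFP-high cells (1.20%, 0.853 to 1.65) and in 17 of 1469 labelled GFP-high cells (1.16%, 0.676 to 1.85). A further 19, 99 and 39 cells lay 1 member below, so 5 is a point in a range and not a class. In MyoFB-IMR the share was 19 of 1032 cells (1.84%, 1.11 to 2.86) in the unlabelled library, and 14 of 467 cells, with an interval from 1.65% to 4.98%, in the labelled one. The cell with the most members, a MatFB-Im,Cuff cell of the unlabelled GFP-high library, held 14 after thinning and 28 with all UMIs, beside 2 of the 30 genes of G2 and mitosis.

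For Pclaf the share of cells with a UMI after thinning was 78.9% of DivFB-S/G2M cells and 0.855% (0.564 to 1.24) of cells outside DivFB in the unlabelled GFP-high library. Their median depths were 30940 and 19455 UMIs. Sftpc, a surfactant gene of epithelial cells that fibroblasts should lack, was seen in 0.348% (0.174 to 0.623) of the same outside cells. In the GFP-low library the shares outside DivFB were 0.552% (0.222 to 1.13) for Pclaf and 1.58% (0.965 to 2.42) for Sftpc. The Sftpc share does not measure the background of Pclaf, and whether the Pclaf UMIs there are background was not tested. E2f8 had the same share of 0.552% in those cells. Without thinning Pclaf was seen in 3.23% and 2.29% of cells outside DivFB in these 2 libraries.

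The gates set a strong Pdgfra reporter against a weak one, and the Fgf18 label against its absence. Over all cells 23 of 34 members were higher in unlabelled GFP-high than in GFP-low cells (25.6% of genes) and 0 lower (18.1% of genes), with a median log2 ratio of 0.66 against 0.11 over all genes. Pclaf stood at 20.6 against 2.22 CPM, a ratio of 9.29 (7.16 to 12.3), Mcm5 at 3.96 against 0.677 CPM, 5.85 (3.63 to 10.0), and Rrm2 at 8.72 against 1.84 CPM, 4.73 (3.53 to 6.47). The lowest were Gins1, at 5.14 against 5.72 CPM, Gins2, at 6.19 against 5.45, and E2f8, at 1.97 against 1.58. DivFB cells held 33.4% of the members' UMIs in the unlabelled GFP-high library, 25.9% in the labelled GFP-high library and 3.70% in the GFP-low library.

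Without DivFB cells 10 members were higher in unlabelled GFP-high cells (24.8% of genes) and 3 lower (18.1% of genes), a share of higher members near that of all genes, with a median log2 ratio of 0.27 against 0.10. TMM or DESeq2 scaling left 4 members higher, where 4630 and 4611 of 21724 genes were. MyoFB cells were 2659 of the 3157 unlabelled GFP-high cells outside DivFB and 66 of the 1269 GFP-low ones, and MatFB cells 170 and 1055, so that cell type makeup and gate cannot be told apart in this comparison. Rfc3 stood at 25.2 against 12.4 CPM, a ratio of 2.03 (1.80 to 2.29), Mcm10, a helicase activator, at 1.84 against 0.572 CPM, 3.22 (1.87 to 5.93), and Chaf1b at 6.24 against 3.28 CPM, 1.90 (1.50 to 2.43). Within AdvFB, Rfc3 stood at 15.5 against 12.8 CPM and Chaf1b at 1.34 against 3.53 CPM. Pclaf stood at 1.93 against 1.26 CPM outside DivFB.

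The members lower in unlabelled GFP-high cells without DivFB were E2f8, Tk1 and Exo1. E2f8 gave 2 UMIs in the unlabelled GFP-high and 38 in the GFP-low cells outside DivFB, 0.0312 against 1.45 CPM, a ratio of 0.02 (0.0025 to 0.08). The GFP-low UMIs lay in 30 cells, with 1.36 CPM (0.441 to 3.17) in AdvFB, 1.66 in MatFB-Im,Cuff, 1.88 in MatFB-Type 1 and 1.45 in MatFB-Type 2. In the unlabelled GFP-high library AdvFB had 0 E2f8 UMIs in 328 cells, with an interval up to 0.449 CPM. It overlaps the one of GFP-low AdvFB only from 0.441 to 0.449 CPM, and such an overlap does not show equal levels. E2f8 had too few UMIs in AdvFB to be counted in the comparison of these libraries. Sftpc, the epithelial gene named above, stood at 7.09 CPM in GFP-low and 0.889 CPM in unlabelled GFP-high cells outside DivFB. The part of background in the E2f8 difference was not tested. Tk1 stood at 1.12 against 2.40 CPM, a ratio of 0.47 (0.33 to 0.67). Exo1 gave 8 and 19 UMIs, but 15 of the 19 were in 1 GFP-low MatFB-Im,Cuff cell, and without the richest cell of each library it stood at 0.0936 and 0.153 CPM.

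**Figure D5:**
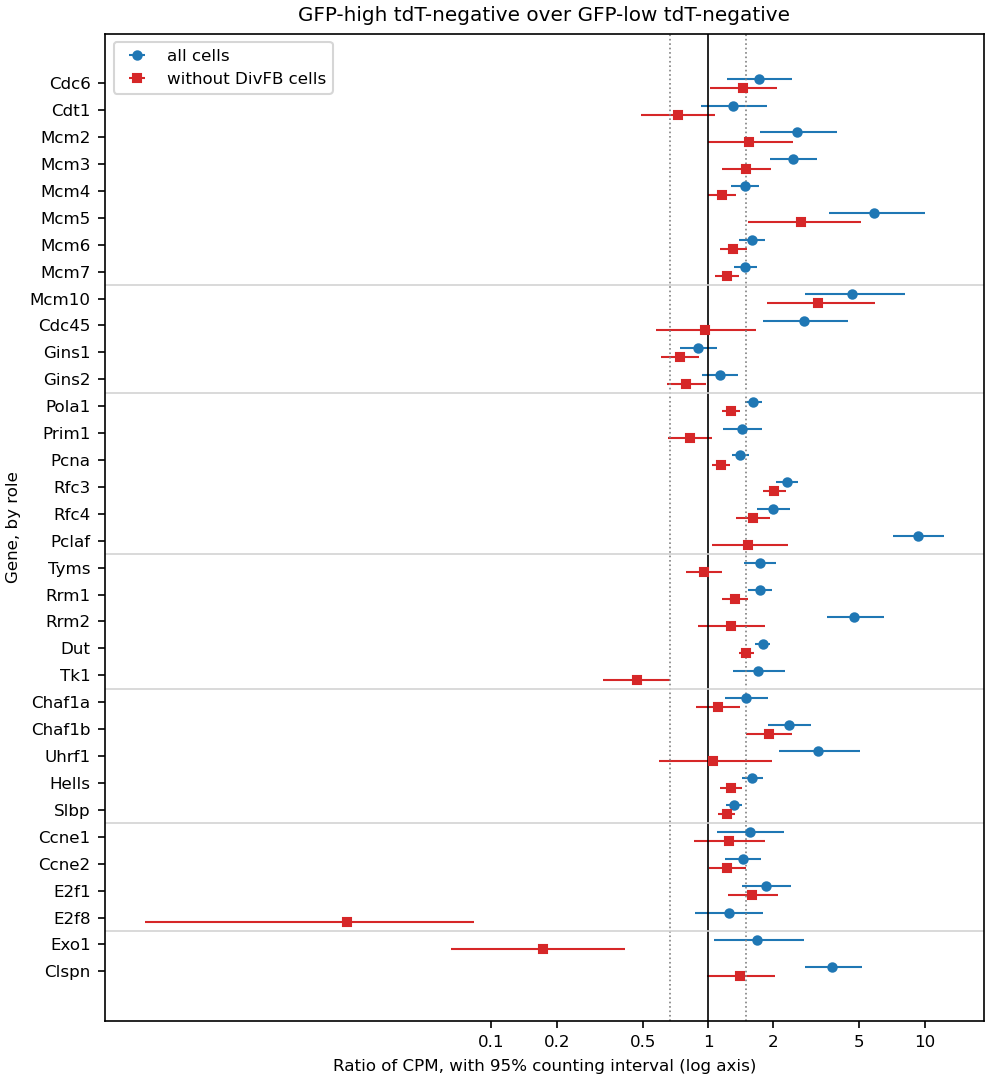
Ratio of the CPM in unlabelled GFP-high to that in GFP-low cells for each counted gene (log axis), with 95% counting intervals, over all cells (circles) and without DivFB cells (squares); dotted lines mark 1.5-fold. Pclaf moves from 9.29 to 1.54 and E2f8 from 1.24 to 0.02 when DivFB cells are left out.

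DivFB cells were 2.78% of labelled and 5.68% of unlabelled GFP-high cells. Comparing labelled with unlabelled cells, no member was called higher over all cells (11.9% of genes) and 5 were lower (10.1% of genes), with a median log2 ratio of -0.23 against -0.01 over all genes. Pclaf stood at 10.7 against 20.6 CPM, a ratio of 0.52 (0.46 to 0.58), Mcm3 at 4.38 against 7.15 CPM, 0.61 (0.51 to 0.74), and Rrm2 at 5.80 against 8.72 CPM. Mcm5 and Ccne1 were the others. Without the 5% of cells with the most UMIs 2 were lower (2088 of 21768 genes). After thinning 9 were lower and 3 higher (1766 and 1651 of 17355 genes). Ccne2 had the highest ratio, 1.39 (1.22 to 1.59), at 10.8 against 7.77 CPM. Cdc6 had a ratio of 1.16, but 16 of its 111 UMIs in the labelled library were in 1 MyoFB-Int cell, and without the richest cell outside DivFB of each library its ratio was 1.01 (0.778 to 1.29).

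Without DivFB cells 1 member was higher in labelled cells (11.8% of genes) and 4 were lower (9.74% of genes), with a median log2 ratio of -0.16 against -0.01. MyoFB cells were 1458 of 1469 labelled and 2659 of 3157 unlabelled cells outside DivFB. AdvFB cells were 4 and 328 and MatFB cells 7 and 170. Cell type makeup and label thus cannot be told apart in this comparison. After thinning 4 members were higher and 4 lower (1659 and 1670 of 17117 genes). Mcm3 stood at 2.22 against 4.29 CPM, a ratio of 0.52 (0.40 to 0.67), and Cdc45, Uhrf1 and Ccne1 were the other lower ones, the first pair with intervals that include 1. Ccne2 stood at 9.51 against 6.49 CPM, a ratio of 1.46 (1.26 to 1.70), under the fold for a call. The higher member was Exo1, with 19 against 8 UMIs, and 12 of the 19 were in 1 MyoFB-Int cell. Without the richest cell of each library Exo1 stood at 0.210 against 0.0936 CPM.

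Mcm3, Ccne1 and Prim1 were lower in labelled than in unlabelled MyoFB-IMR cells, and Dut and Rfc3 were lower in labelled MyoFB-Ter cells. In MyoFB-IMR 1 of 32 counted members was higher in labelled cells (9.47% of genes) and 5 lower (5.25% of genes). Mcm3 stood at 2.28 against 5.25 CPM, a ratio of 0.43 (0.27 to 0.68), Ccne1, a cyclin of S phase entry, at 0.822 against 2.35 CPM, 0.35 (0.15 to 0.72), and Prim1, the small primase subunit, at 2.28 against 4.17 CPM, 0.55 (0.34 to 0.86). The higher one, Ccne2, stood at 11.9 against 7.90 CPM, a ratio of 1.50 (1.18 to 1.91). In MyoFB-Int 0 of 32 were higher (10.5% of genes) and 2 lower (7.42% of genes), Mcm5 and Tyms, the thymidylate synthase, at 0.383 against 0.965 CPM and 3.62 against 5.45 CPM. In MyoFB-Ter 3 of 22 were higher (11.8% of genes) and 6 lower (13.8% of genes), among which Dut, at 21.2 against 36.0 CPM, and Rfc3, at 16.6 against 25.2 CPM, had intervals below 1. The higher ones were Ccne2, at 11.4 against 7.53 CPM, Clspn, at 4.14 against 2.64, and Cdc6, at 2.85 against 1.88. After thinning 2 were higher and 3 lower in MyoFB-IMR (1119 and 1012 of 13609 genes) and 3 and 3 in MyoFB-Int (1260 and 1202 of 14076 genes).

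Between the unlabelled GFP-high and GFP-low libraries the split of members in AdvFB cells moved with the setting. Of 24 counted 5 were higher (12.9% of genes) and 5 lower (13.2% of genes), with a median log2 ratio of 0.01. Thinning gave 5 higher and 1 lower of 11 (1525 and 1228 of 9698 genes), at a median of 0.36. A 2-fold call gave 0 higher and 4 lower (852 and 991 of 14404 genes). E2f1 stood at 10.5 against 5.43 CPM, a ratio of 1.93 (1.17 to 3.31), and Hells at 17.2 against 10.3 CPM, 1.66 (1.15 to 2.45). Cdt1 stood at 0.973 against 4.07 CPM, a ratio of 0.24 (0.09 to 0.60), and Prim1 at 2.19 against 7.06 CPM, 0.31 (0.16 to 0.59). The 43 GFP-low AdvFB cells with at least 2 smooth muscle markers had Acta2 at 5119 CPM against 134 CPM in the other 105. Without such cells 4 members were higher and 4 lower (1593 and 1603 of 14039 genes). The GFP-low levels were then 2.98 CPM for Cdt1, 5.96 for Prim1, 6.71 for E2f1 and 11.9 for Hells.

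In MatFB-Im,Cuff 8 of 20 members were higher in unlabelled GFP-high cells (18.6% of genes) and 1 lower (15.2% of genes), but 1 of the 110 cells decided this count. Mcm5 stood at 6.76 against 1.42 CPM, a ratio of 4.75 (1.72 to 15.1), Mcm3 at 11.6 against 4.98 CPM, 2.33 (1.24 to 4.40), and Tyms at 18.8 against 8.53 CPM, 2.21 (1.37 to 3.57). Gins1 was the lower one, at 1.45 against 8.77 CPM, a ratio of 0.17 (0.03 to 0.52). Without the cell that held 14 members 4 of 17 were higher (2327 of 12482 genes), and the median log2 ratio moved from 0.37 to 0.11. Mcm5 then stood at 3.42, Mcm3 at 10.8, Tyms at 16.6, Pclaf at 0.489 in place of 2.90 and Clspn at 1.95 in place of 5.79 CPM.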

How the data were processed

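Per the labels' protocols the libraries were 10x Genomics 3' single-cell libraries, and the submitters' processing notes name Cell Ranger 7.0.0 and the build mm10. The sources used here do not say whether intronic reads were counted, which cells were filtered out or how types were named. The deposited values are unnormalized counts of UMIs for each gene in each cell, and the authors' table gives each cell's gate, type and percent of mitochondrial UMIs. All 6142 deposited cells were kept, and no doublet caller was run.

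UMIs were summed over cells and divided by their total (CPM). Ratios have exact conditional binomial intervals, levels exact Poisson intervals and shares exact Clopper-Pearson intervals, all at 95%. Log2 ratios used a pseudocount of 1 CPM, and a count of 0 was allowed 3 counts. There is 1 library per gate, so no test was run. Cells were thinned to 5000 UMIs, which every cell reached, where members per cell were counted. Named genes were, in each role group, the member with the most UMIs and those with the highest and lowest ratio of DivFB to other cells. For gates the plan was to name the 3 highest and 3 lowest by log2 ratio, but not all of these are named. For types with fewer than 20 cells in a library the plan was to give counts only. Ratios are nonetheless given for labelled DivFB-S, DivFB-S/G2M and DivFB-G2M, with 11, 16 and 15 cells. Members named for the contrasts between cell types, and other members beyond this rule, were chosen after their values were seen. The members and lists were chosen with earlier results of these data known.

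Coordinates are RefSeq's on GRCm38.p6. By GENCODE M21, 8 members overlap a gene on the other strand, Cdt1 overlaps one on the same strand, and Pcna and Tyms have named pseudogenes, so their counts are less certain. Alternatives were TMM scaling (edgeR 4.0.16) and size factors (DESeq2 1.42.0), other thresholds, cell filters and thinning. The calculation was tested on simulated data. Versions were R 4.3.3, scipy 1.17.1 and Python 3.11.15.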

Additional observations from a re-analysis of the deposited data

How the results depend on the processing

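No paired analysis was possible because each gate has 1 library. Of 97 alternative values of counts of called members and shares of cells 67 stayed within 1.5 times, or within the counting interval, and 30 moved. Both counts of 34 members higher in DivFB than in other types stayed at 34 under TMM scaling, a minimum of 1 UMI, a 2-fold call and removal of the 5% of cells with the most UMIs. After thinning 33 of 33 counted members were higher in the unlabelled GFP-high library (2622 of 16028 genes). In the labelled one 27 of 28 were higher and 1 lower (3064 and 4158 of 13558 genes). TMM moved the median log2 ratio of all genes from -0.04 to -0.15 in the DivFB comparison of the labelled GFP-high library.

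From a 2-fold call, members higher in unlabelled GFP-high over GFP-low cells were 11 in place of 23 over all cells (3307 of 21922 genes). They were 3 in place of 10 without DivFB (3124 of 21724 genes) and 0 in place of 5 in AdvFB (852 of 14404 genes). Members lower by this call in labelled GFP-high over unlabelled GFP-high cells were 0 in place of 5 over all cells (1155 of 22086 genes). Without DivFB they were 0 in place of 4 (1118 of 21867 genes). They were 2 in place of 5 in MyoFB-IMR (295 of 18253 genes), 1 in place of 2 in MyoFB-Int (492 of 18649 genes) and 3 in place of 6 in MyoFB-Ter (695 of 13684 genes). TMM scaling gave 4 in place of 10 higher without DivFB between unlabelled GFP-high and GFP-low cells (4630 of 21724 genes). DESeq2 size factors also gave 4 (4611 genes). TMM gave 1 in place of 2 lower in MyoFB-Int (1278 of 18649 genes). Without the 5% of cells with the most UMIs, 2 were lower over all cells of the GFP-high gates (2088 of 21768 genes) and 1 in MyoFB-Int (1373 of 18367 genes). Requiring the counting interval off 1 left 2 of 4 lower without DivFB between these gates (1610 of 21867 genes). A minimum of 1 UMI gave 10 in place of 6 lower in MyoFB-Ter (5693 of 24029 genes) and 14 in place of 8 higher in MatFB-Im,Cuff (5931 of 22829 genes). Thinning gave 9 lower over all cells of the GFP-high gates (1766 of 17355 genes) and 3 in MyoFB-IMR (1012 of 13609 genes). It gave 3 higher in MatFB-Im,Cuff (1698 of 8400 genes). Without the cell with the most members, an alternative chosen after seeing the data, as were leaving out AdvFB cells with smooth muscle markers and a member's richest cell, MatFB-Im,Cuff had 4.

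The share of cells outside DivFB with several members, in the order GFP-low, unlabelled GFP-high and labelled GFP-high, was 7.41%, 14.8% and 12.6% with at least 3 members, 0%, 0.0634% and 0% with at least 8, and 28.4%, 41.1% and 40.3% with all UMIs. Another seed of the thinning gave 0.613% in place of 1.16% in the last.

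Of 970 alternative ratios of called members 38 left their counting interval and 3 changed direction, all under thinning. Mcm2 without DivFB in unlabelled GFP-high over GFP-low cells had a ratio of 0.904, Cdc6 in MyoFB-IMR between the GFP-high gates 1.03, and Gins1 in DivFB over other types of the labelled GFP-high library 0, since thinning left no Gins1 UMI in 42 cells. The cause of the other moves was not tested. Depth limits members under a few UMIs in the smaller types.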
